A study of Mus musculus with 4 samples.

Results

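The lysosome and proton pump genes are 34 genes listed by symbol, and all 34 were found among the 46078 gene rows of the count table. They hold 16 genes of the vacuolar-type proton pump (V-ATPase) and 18 other members, namely lysosomal membrane proteins, the transcription factors that drive lysosomal genes, cholesterol export proteins and acid hydrolases. Gene IDs of the count table were matched to symbols through the authors' deposited table or the GRCm38 annotation. The rule itself used no measured value, but the members were chosen with earlier results of these data known. All 34 passed the filter on low counts, so no member is missing from the tests.

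RNA of sorted CD103-positive dendritic cells (DCs) was sequenced from 2 Il33flx libraries and 2 Ctrl libraries. Il33flx mice had the genotype CD11c-cre-Il33flx/flx, in which Cre made under the CD11c promoter can delete loxP-flanked Il33. Ctrl mice had the genotype CD11c-cre, so both groups carried the Cre transgene. Mice of both groups were injected with EL4-Flt3 tumour cells and killed after 10 days, and spleen and mesenteric lymph node cells were sorted as CD45+, CD64-, CD11b+, MHCII+ and CD103+. CD11c is made by DCs and by some other myeloid and lymphoid cells, so deletion need not be limited to DCs. No age is given, and it is not stated if the 2 libraries of each genotype are from different mice or from pools, so p-values measure only the spread between these libraries.

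The V-ATPase pumps protons into lysosomes and endosomes. Its membrane sector, V0, carries the proton, and its cytosolic sector, V1, hydrolyses ATP to turn the rotor. The low pH activates the acid hydrolases that digest internalised material. In DCs the degree of acidification sets how fast antigen is broken down before its peptides are loaded on MHC class II. TFEB, TFE3 and MITF are related transcription factors that bind E-box motifs in promoters of lysosomal genes.

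Library totals were 67707682 to 81217828 gene counts. Values below are CPM, counts scaled to library size after TMM, a correction for library composition, and fold changes are on the log2 scale. Ctrl 1 stood apart from the other libraries. On the first principal component, 49.97% of the variance, it lay at 70.1, while Il33flx 1 lay at -26.2, Il33flx 2 at -25.2 and Ctrl 2 at -18.8. Counts and medians are therefore also given without Ctrl 1, as are the log2 fold changes that it moved most. Il33 had 4 and 0 counts in Il33flx and 4 and 8 counts in Ctrl, which is too few to check the genotype. The genes of the gate were read in all libraries, with H2-Ab1 (MHC class II) at 33048 to 42764 CPM and Itgae (CD103) at 56.8 to 116 CPM, and Fcgr1, the gene of the excluded CD64, was at 3.66 to 5.50 CPM.

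None of the 34 members passed the adjusted threshold. With edgeR's quasi-likelihood test, 0 members had an adjusted p below 0.05, in a comparison where 0.00667% of the 14995 genes tested were called. DESeq2 and limma-voom also called 0 members, where 0.345% and 0% of all genes were called. At an unadjusted p under 0.05, 1 member was lower in Il33flx (Atp6v0c) and 0 were higher, against 1.24% and 2.02% of all genes, or 3.26% in both directions. The authors' deposited table listed all 34 members and called 0, and its smallest adjusted p among them was 0.152, for Atp6v0c.

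Most members had values a little lower in Il33flx. The log2 fold change was below 0 for 24 of 34 members, or 70.6%, against 48.2% of all genes tested. The median was -0.12 over the members and 0.01 over all genes. Both Il33flx libraries lay below both Ctrl libraries for 10 members, or 29.4%, against 14.9% of all genes, and above both for 3 members, or 8.82%, against 15.4%. Fewer cells of a type and less RNA per cell cannot be told apart in such bulk samples.

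The pattern rested largely on Ctrl 1. Ctrl 1 was the highest of the 4 libraries for 23 of the 34 members, or 67.6%, whereas it was the highest for 34.2% of all genes. Without Ctrl 1 the median over the members was -0.04, against 0.01 over all genes, and 20 of 34 were below 0. Without it, 15 members lay below Ctrl 2 in both Il33flx libraries, where 33.6% of all genes did, and 11 lay above it, where 30.6% did. Without Ctrl 2, 24 members were lower and 8 higher in both Il33flx libraries, against 37.9% and 41.4% of all genes. Without Il33flx 1 the counts were 15 lower (28.5% of all genes) and 4 higher (29.7%), and without Il33flx 2 they were 13 lower (29.7%) and 4 higher (29%).

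**Figure D1:**
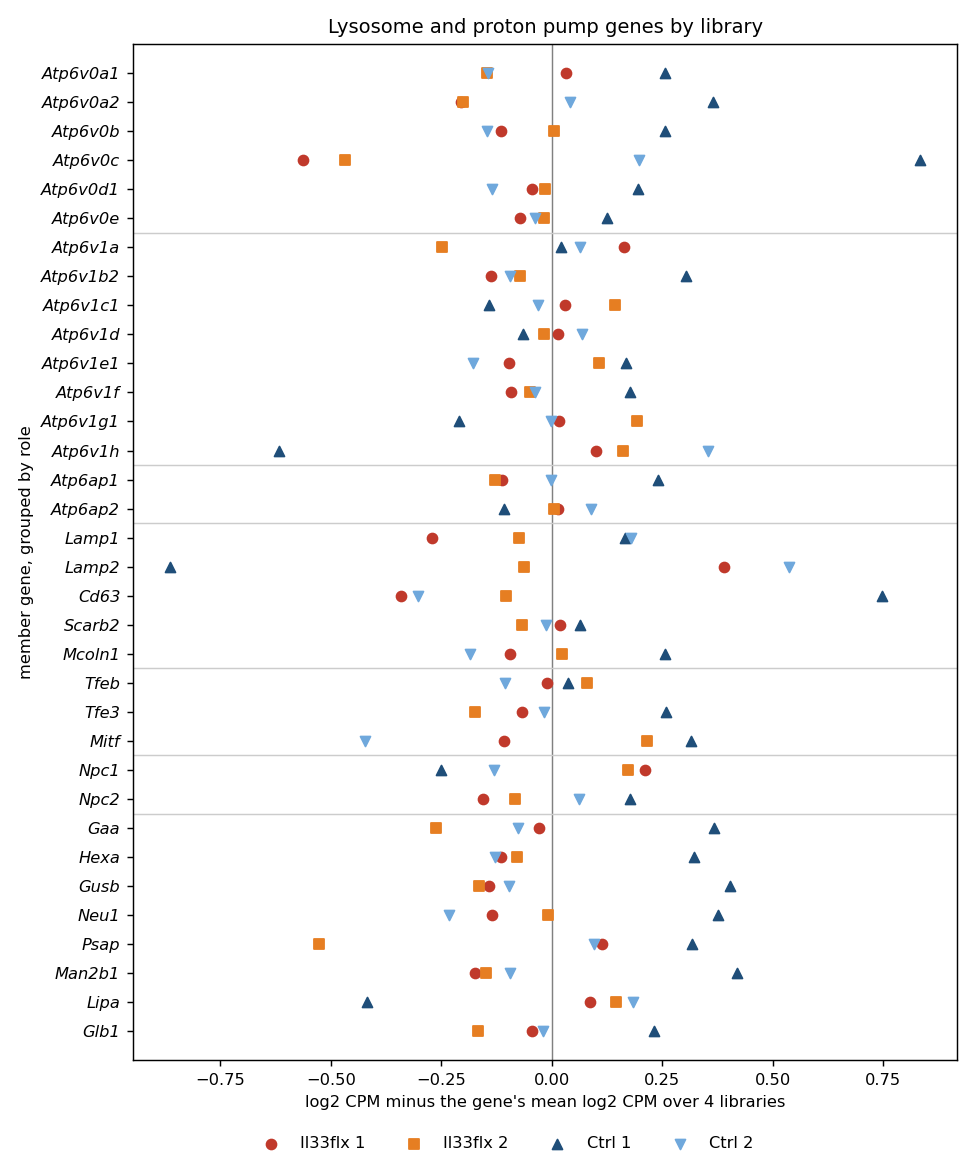
Log2 CPM of each member in each library, as the difference from that gene's mean over the 4 libraries (x axis, log2 units), with members on the y axis grouped by role. Ctrl 1 is the rightmost point for 23 of 34 members, while Lamp2, Atp6v1h and Lipa have Ctrl 1 at the far left.

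The V-ATPase genes and the other members both had a median log2 fold change below 0. The median log2 fold change was -0.08 over the 16 V-ATPase genes and -0.21 over the 18 others, and 11 of 16 and 13 of 18 were below 0. The groups did not overlap for 4 lower (25%) and 2 higher (12.5%) V-ATPase genes and for 6 lower (33.3%) and 1 higher (5.56%) of the others, against 14.9% lower and 15.4% higher over all genes. The mean log2 CPM of the V-ATPase genes was 6.75 and 6.77 in Il33flx, against 6.93 and 6.81 in Ctrl, and that of the other members was 7.13 and 7.11 in Il33flx, against 7.34 and 7.15 in Ctrl. In both sets Ctrl 1 held the highest mean and Ctrl 2 lay nearer to Il33flx than to Ctrl 1. Without Ctrl 1 the medians were -0.01 and -0.05. With library size in place of TMM the V-ATPase median was about 0 and that of the others -0.13, while the median of all genes was 0.09. A difference between both sets was not tested, since 2 libraries against 2 cannot give a two-sided permutation p below 0.333.

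**Figure D2:**
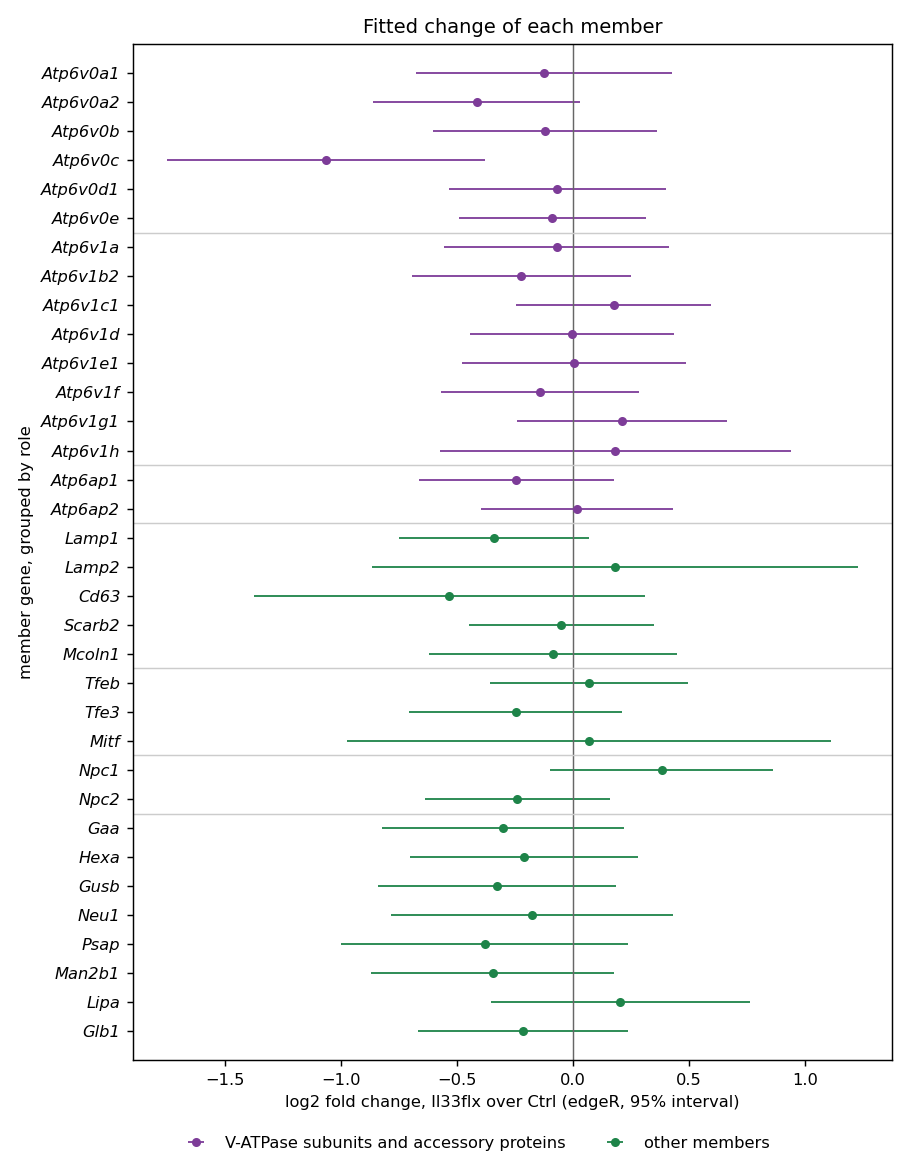
Fitted log2 fold change of Il33flx over Ctrl for each member (x axis) with its 95% interval, V-ATPase genes in purple and other members in green, grouped by role on the y axis. The interval of Atp6v0c, -1.75 to -0.38, is the only one that does not include 0.

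Atp6v0c encodes the proteolipid c subunit that forms most of the proton-carrying ring of V0. It lies at chromosome 17, 24163866 to 24169702 on the minus strand of GRCm38 (ENSMUSG00000024121). It had 8.28 and 8.85 CPM in Il33flx, against 21.8 and 14.0 CPM in Ctrl. The groups did not overlap, and Ctrl 1 was the highest. The fitted log2 fold change, -1.06 ± 0.28 SE, had an unadjusted p of 0.00835 and an edgeR adjusted p of 0.995, and its 95% interval ran over -1.75 to -0.38. Over the alternatives the adjusted p was 0.119 to 1, and without Ctrl 1 the log2 fold change was -0.70.

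The counts of Atp6v0c are uncertain because the genome holds a near-identical copy. Atp6v0c-ps2, a processed pseudogene at chromosome 6, 37806086 to 37806550 on the plus strand, aligned without a gap to the whole 465-base coding sequence of Atp6v0c and matched it at 464 bases. The single difference is T111C, with the Atp6v0c base first and positions counted from the first coding base, in exon 3 of transcript Atp6v0c-202. A read inside the shared sequence can be told apart by sequence only if it covers that base or runs out of the copy, and reads with several placements were not assigned to genes. The stretches around the difference, bases 81 to 141 of the coding sequence and of the pseudogene in the GENCODE M21 transcripts, are shown with the differing base in capitals.
Atp6v0c: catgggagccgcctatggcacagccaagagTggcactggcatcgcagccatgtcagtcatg
Atp6v0c-ps2: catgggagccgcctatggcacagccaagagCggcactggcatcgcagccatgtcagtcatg

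The copy had higher values in Il33flx. Atp6v0c-ps2, singled out after its values were seen, had 774 and 946 counts in Il33flx, against 579 and 500 counts in Ctrl, which were 10.96 and 13.4 CPM in Il33flx and 7.54 and 6.65 CPM in Ctrl. Both Il33flx libraries were the higher ones, at a log2 fold change of 0.78 ± 0.25 SE (edgeR, adjusted p = 0.995, with 0.0198 before adjustment). Of the counts assigned to either copy, the pseudogene took 57.0% and 60.1% in Il33flx, against 25.7% and 32.2% in Ctrl. The sum of both was 19.2 and 22.2 CPM in Il33flx, against 29.3 and 20.7 CPM in Ctrl. These groups overlapped, and the log2 fold change of the sum was -0.27 ± 0.25 SE (adjusted p = 0.995, edgeR). How the shared sequence acts on either value was not tested.

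**Figure D3:**
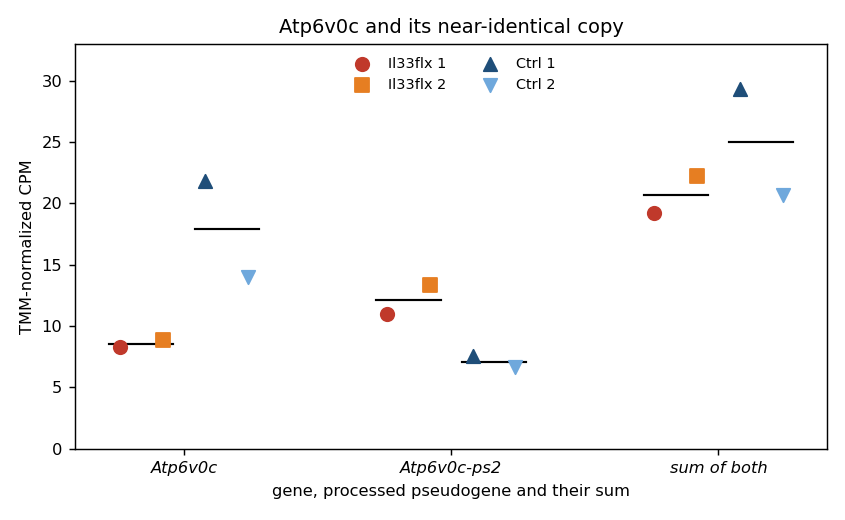
CPM of Atp6v0c, of its processed pseudogene Atp6v0c-ps2 and of their sum in each library (points), with group means as lines. Both Il33flx points lie below the Ctrl points for Atp6v0c and above them for the pseudogene, while the sums overlap at 19.2 and 22.2 CPM in Il33flx and 29.3 and 20.7 CPM in Ctrl.

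The remaining V0 genes had log2 fold changes of -0.42 to -0.07. Atp6v0a2, which encodes an a subunit that anchors the rotor's stator and forms the proton half-channels, had 470 and 471 CPM in Il33flx, against 698 and 558 CPM in Ctrl. Its groups did not overlap (log2 fold change -0.42 ± 0.19 SE, edgeR adjusted p = 0.995, with 0.0628 before adjustment), and without Ctrl 1 the value was -0.24. Atp6v0a1, another a subunit gene, had 25.1 ± 2.21 CPM in Il33flx and 27.3 ± 5.33 CPM in Ctrl (SD, n = 2 each). Atp6v0b, the gene of the c″ ring subunit, had 146 ± 8.62 CPM in Il33flx and 159 ± 31.2 CPM in Ctrl. Atp6v0d1, whose product couples the ring to the central stalk, and Atp6v0e, a small membrane subunit gene, had log2 fold changes of -0.07 and -0.09. Ctrl 1 was the highest library for all 6 V0 genes, and without it 2 of the 6 were below 0, Atp6v0a2 and Atp6v0c.

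The V1 genes lay on both sides of 0, with a median of -0.00 and a range of -0.22 to 0.21. Atp6v1a, the catalytic A subunit gene, had 127 and 95.4 CPM in Il33flx, against 115 and 119 CPM in Ctrl, so the Il33flx libraries lay on either side of Ctrl (log2 fold change -0.07 ± 0.20 SE, adjusted p = 0.995, edgeR). Atp6v1f, a central stalk subunit gene, had 97.7 and 101 CPM in Il33flx, against 118 and 101 CPM in Ctrl, and Ctrl 2 exceeded Il33flx 2 by less than 1%. The peripheral stalk gene Atp6v1g1 had 74.5 and 84.2 CPM in Il33flx, against 63.7 and 73.5 CPM in Ctrl. Atp6v1c1, which encodes a stalk-linking subunit that leaves the pump when V1 and V0 separate, had 89.9 and 97.2 CPM in Il33flx, against 79.7 and 86.1 CPM in Ctrl. For Atp6v1g1 and Atp6v1c1 both Il33flx libraries were the higher ones, with log2 fold changes of 0.21 ± 0.19 SE and 0.18 ± 0.17 SE (adjusted p = 0.995 for each, edgeR), or 0.12 and 0.13 without Ctrl 1.

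Atp6v1h had Ctrl libraries far apart. Its product is a regulatory subunit that holds V1 inactive once V1 has left the membrane. It averaged 140 ± 4.19 CPM in Il33flx and 123 ± 56.7 CPM in Ctrl (SD, n = 2 each), since Ctrl 1 read 83.4 and Ctrl 2 read 164 CPM. Its log2 fold change was 0.18 ± 0.31 SE, and -0.22 without Ctrl 1. The B subunit gene Atp6v1b2, at 254 ± 8.35 CPM in Il33flx and 297 ± 57.8 CPM in Ctrl, had the opposite pattern, with Ctrl 1 the highest. The stalk genes Atp6v1d and Atp6v1e1 had log2 fold changes of -0.01 ± 0.18 SE and 0.00 ± 0.20 SE.

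Neither accessory gene passed the test. Atp6ap1, whose product takes part in V0 assembly, had 339 and 335 CPM in Il33flx, against 433 and 365 CPM in Ctrl, and its groups did not overlap (log2 fold change -0.24 ± 0.17 SE, adjusted p = 0.995, edgeR). Without Ctrl 1 its value was -0.11. Atp6ap2, also known as the prorenin receptor gene, had 182 and 181 CPM in Il33flx, against 167 and 192 CPM in Ctrl. Its interval, -0.40 to 0.43, lay on both sides of 0.

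Levels per exon length, as TPM, showed which isoform gene of each pump subunit had most transcripts. TPM corrects each count for exon length and library size. The exon length is that of all annotated exons of a gene together and can exceed the length of a transcript. Shares and ranks per length are therefore approximate. Atp6v0a2 made up 73.8% to 77.5% of the a subunit transcripts over the 4 libraries, and Tcirg1, the a3 gene known from osteoclasts, 19.2% to 21.9%. Atp6v0a1 made up 3.36% to 4.29%, and Atp6v0a4, the a4 gene of the kidney, had 0 counts in each library. Tcirg1 itself read 95.5 and 94.0 CPM in Il33flx, against 133 and 94.4 CPM in Ctrl (log2 fold change -0.26 ± 0.22 SE, adjusted p = 0.995, edgeR), and its log2 fold change was 0.01 without Ctrl 1.

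For the other subunits 1 isoform took almost all transcripts. Atp6v0d1 made up 99.9% to 99.97% of the d subunit transcripts, and Atp6v1g1 98.9% to 99.2% of the G subunit transcripts. Atp6v0e2 and Atp6v1b1 had 0 counts in each library, Atp6v1c2 and Atp6v1e2 0 to 3 counts, and Atp6v1g3 0 to 1. A count of 0 allows up to 3 counts, which is 0.0369 to 0.0443 CPM, and such limits cover counting error only. Atp6v0d2, the d2 gene known from osteoclasts, had 10 and 8 counts in Il33flx, against 3 and 4 in Ctrl. Atp6v0c, at 8.23 ± 0.12 TPM in Il33flx and 16.2 ± 4.15 TPM in Ctrl, was the lowest of the V0 members per length in Il33flx. The annotated exons of Atp6v0c span 3384 bases together, while its transcript Atp6v0c-202 has 796 bases, so this rank may depend on the length used. As stated above, the counts of Atp6v0c also exclude reads that align elsewhere.

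**Figure D4:**
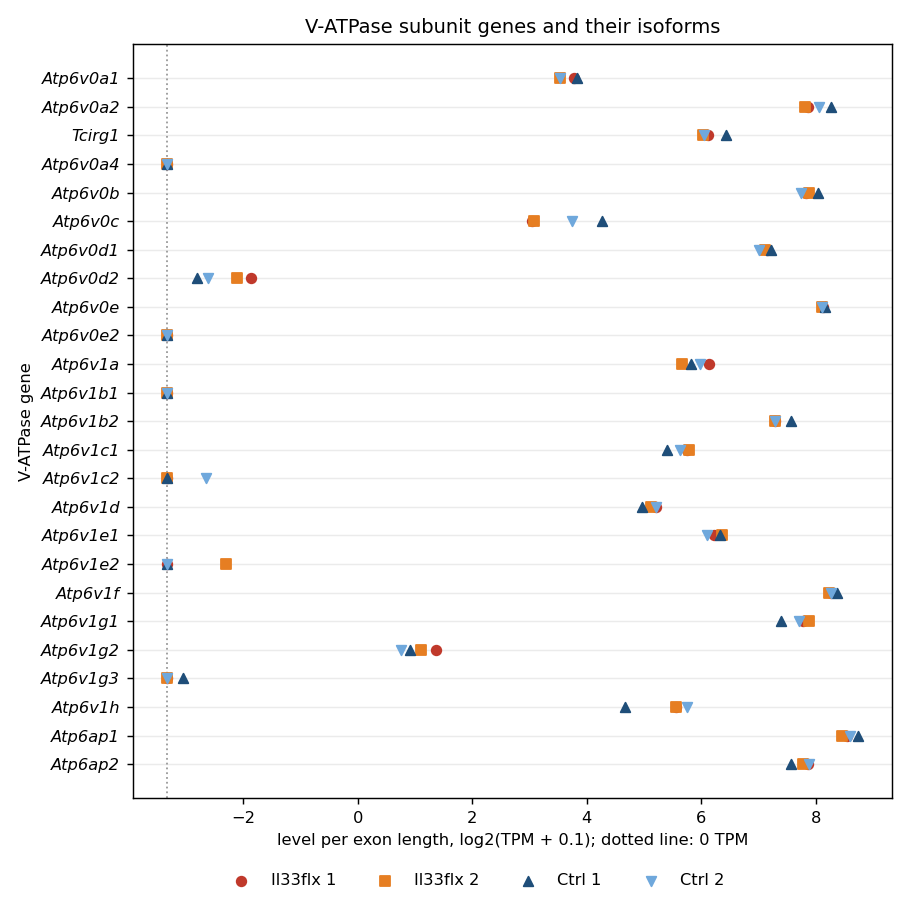
Level per exon length of V-ATPase genes and their isoforms, as log2(TPM + 0.1), in each library. Atp6v0a4, Atp6v0e2 and Atp6v1b1 lie at 0 TPM in all 4 libraries, and Atp6v0c lies below the other V0 members in Il33flx.

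Among the lysosomal membrane proteins, Lamp1 was lower in both Il33flx libraries. LAMP1 is an abundant glycoprotein that lines the lysosomal membrane. Lamp1 had 201 and 230 CPM in Il33flx, against 271 and 274 CPM in Ctrl. The Ctrl libraries agreed closely, and both exceeded both Il33flx libraries. The fitted value, -0.34 ± 0.17 SE on the log2 scale, had an edgeR p of 0.0888 unadjusted and 0.995 adjusted, and it was -0.34 without Ctrl 1 as well.

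Lamp2 and Cd63 varied more within Ctrl than between the groups. Lamp2, whose product also serves chaperone-mediated autophagy, had 112 and 82.0 CPM in Il33flx, against 47.1 and 124 CPM in Ctrl. Its log2 fold change of 0.18 ± 0.44 SE became -0.35 without Ctrl 1. Cd63, a tetraspanin gene of late endosomes and exosomes, had 27.7 and 32.6 CPM in Il33flx, against 58.9 and 28.4 CPM in Ctrl. Its log2 fold change of -0.53 ± 0.35 SE became 0.09 without Ctrl 1. Ctrl 1 held the lowest Lamp2 and the highest Cd63 value, and both genes had an adjusted p of 0.995 (edgeR).

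Scarb2 and Mcoln1 had overlapping groups. Scarb2 encodes LIMP-2, which carries beta-glucocerebrosidase to lysosomes, and had 156 and 147 CPM in Il33flx, against 161 and 152 CPM in Ctrl. Mcoln1 encodes TRPML1, the lysosomal calcium channel, and had 38.2 and 41.5 CPM in Il33flx, against 48.7 and 35.9 CPM in Ctrl. The 95% intervals of their log2 fold changes were -0.45 to 0.35 and -0.62 to 0.45. Per length, Mcoln1 made up 87.2% to 90.8% of the transcripts of the 3 mucolipin genes.

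Tfeb was the main member of its family per exon length, with 59.5% to 66.8% of the TPM of Tfeb, Tfe3, Mitf and Tfec. That share depends on the length of all annotated exons, 5669 bases for Tfeb and 9261 bases for Tfe3. In CPM, not corrected for length, Tfe3 exceeded Tfeb in Ctrl 1. Tfeb had 76.6 and 81.6 CPM in Il33flx, against 79.2 and 71.7 CPM in Ctrl, and the groups overlapped (log2 fold change 0.07 ± 0.18 SE, adjusted p = 0.995, edgeR). Tfe3 had 67.9 and 63.0 CPM in Il33flx, against 85.1 and 70.3 CPM in Ctrl. Its groups did not overlap, with a log2 fold change of -0.25 ± 0.19 SE (adjusted p = 0.995, edgeR) and -0.09 without Ctrl 1. Mitf was low, at 1.39 and 1.74 CPM in Il33flx, against 1.86 and 1.12 CPM in Ctrl, and made up 0.88% to 1.3% of the family.

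Promoter sequence of the members was read from RefSeq windows of GRCm38.p6, from 250 bases before to 50 bases after each annotated start, for the binding motif of these factors. The table held 36 windows for 28 of the 34 members. The CLEAR palindrome, which adds a G before and a C after TCACGTGA, was in 0 of the 36 windows and in 0.326% of all 32851 windows. The shorter TCACGTGA, contained in it, was in 4 of the 36 and in 0.974% of all windows, and its core CACGTG was in 8 of the 36 and in 7.15% of all. Each motif is its own reverse complement, so both strands were covered. Of the 13 V-ATPase windows 3 held TCACGTGA, and of the 23 other windows 1 did. A match is only a description of the letters. The 4 windows with TCACGTGA and that of Lamp1, which holds CACGTG at 4 places, are shown with the matches in capitals. They come from chr8:105566041-105566088 (minus strand) for Atp6v0d1, chr17:26676378-26676425 (plus) for Atp6v0e, chr16:44139364-44139411 (minus) for Atp6v1a, chr8:3500443-3500500 (plus) for Mcoln1 and chr8:13159095-13159156 (plus) for Lamp1.
Atp6v0d1: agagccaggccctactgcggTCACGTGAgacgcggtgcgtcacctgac
Atp6v0e: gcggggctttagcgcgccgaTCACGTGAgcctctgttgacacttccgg
Atp6v1a: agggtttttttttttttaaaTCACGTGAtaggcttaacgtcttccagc
Mcoln1: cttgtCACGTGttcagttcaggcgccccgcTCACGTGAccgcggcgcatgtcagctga
Lamp1: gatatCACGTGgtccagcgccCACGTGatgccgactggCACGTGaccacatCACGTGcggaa

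Measured to its first base, TCACGTGA began 4 bases before the start in Atp6v0d1, so it spans that start. It began 132 bases before the start in Atp6v1a, 46 bases before it in Mcoln1 and 2 bases after it in Atp6v0e. The log2 fold changes of these 4 genes, -0.09 to -0.07, were all near 0. Lamp1, Gaa, Glb1 and Atp6v0b held the core but not TCACGTGA, and their log2 fold changes were -0.34, -0.30, -0.22 and -0.12. The 3 windows of Atp6v0c held neither. A link between these letters and the fold changes was not tested.

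The cholesterol export genes differed in direction. NPC2 picks up cholesterol inside the lysosome and passes it to NPC1 in the membrane. Npc1 had 26.5 and 25.8 CPM in Il33flx, against 19.3 and 20.9 CPM in Ctrl, and both Il33flx libraries were the higher ones (log2 fold change 0.38 ± 0.20 SE, edgeR adjusted p = 0.995, with 0.102 before adjustment). Npc2 had 370 and 388 CPM in Il33flx, against 466 and 430 CPM in Ctrl, and both Il33flx libraries were the lower ones (-0.24 ± 0.17 SE, adjusted p = 0.995). Without Ctrl 1 the values were 0.33 for Npc1 and -0.17 for Npc2. Exons of Npc1 overlap those of Rmc1 and Gm15956 on the opposite strand. The strand setting of the counting is not given in the sources used here. It is therefore not known if reads inside these overlaps were counted for Npc1, for a neighbour or for neither.

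Of the 8 genes for hydrolases and activators, 7 had negative log2 fold changes, with a median of -0.26. Psap encodes prosaposin, the precursor of the saposins that help enzymes reach sphingolipids, and ranked in the 99.98th percentile of all tested genes per length. It had 16478 and 10564.5 CPM in Il33flx, against 18971 and 16264 CPM in Ctrl. Il33flx 2 was the low library, and Il33flx 1 lay between the Ctrl libraries (log2 fold change -0.38 ± 0.26 SE, adjusted p = 0.995, edgeR). The Psap value was -0.74 without Il33flx 1, -0.07 without Il33flx 2 and -0.26 without Ctrl 1.

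For Man2b1, Gusb and Glb1 each Il33flx library read lower than each Ctrl library. Man2b1, the gene of lysosomal alpha-mannosidase, had 1687 and 1718 CPM in Il33flx, against 2545 and 1782.5 CPM in Ctrl. Gusb, the beta-glucuronidase gene, had 842 and 829 CPM in Il33flx, against 1228 and 869 CPM in Ctrl. Glb1, the gene of lysosomal beta-galactosidase, had 75.6 and 69.4 CPM in Il33flx, against 91.5 and 76.9 CPM in Ctrl. In each of these genes Ctrl 2 lay closer to the Il33flx libraries than to Ctrl 1. Their log2 fold changes were -0.35, -0.33 and -0.22 (adjusted p = 0.995 for each, edgeR), and -0.06, -0.05 and -0.08 without Ctrl 1.

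Gaa, which encodes the acid alpha-glucosidase that degrades glycogen, had 114 and 97.1 CPM in Il33flx, against 150 and 110 CPM in Ctrl, and its groups overlapped (log2 fold change -0.30 ± 0.22 SE, adjusted p = 0.995, edgeR). The Gaa value was -0.05 without Ctrl 1. Hexa, the gene of the hexosaminidase alpha chain, averaged 501 ± 8.58 CPM in Il33flx and 580 ± 127 CPM in Ctrl, and the sialidase gene Neu1 averaged 35.3 ± 2.19 CPM in Il33flx and 39.8 ± 11.7 CPM in Ctrl (SD, n = 2 each). Their log2 fold changes were -0.21 and -0.18, and 0.04 and 0.17 without Ctrl 1. Lipa, the gene of lysosomal acid lipase, was the exception in sign. It had 343 and 357 CPM in Il33flx, against 242 and 367 CPM in Ctrl, with Ctrl 1 the low library, and its log2 fold change of 0.20 ± 0.23 SE was -0.06 without Ctrl 1. Without Ctrl 1 the median of these 8 genes was -0.06.

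Other genes of the lysosome were read from 4 further lists with 85 genes, of which 77 were tested. None was called (0 of 77 with edgeR, DESeq2 or limma-voom), and 0 had an unadjusted p under 0.05. Of the 77, 58 had a log2 fold change below 0 and the median was -0.09, and without Ctrl 1 these values were 43 and -0.02. Among 30 further hydrolase and cofactor genes 25 were negative, with a median of -0.12. Among 23 further membrane and sorting genes 17 were negative, with a median of -0.18. Over all genes tested, 48.2% were negative. Without Ctrl 1, 15 of the 30 were negative, with a median of -0.0029, and 15 of the 23, with a median of -0.078. The groups did not overlap, with Il33flx lower, for 5 (16.7%) of the 30 and 7 (30.4%) of the 23. Il33flx was higher without overlap for 1 and 0, against 14.9% lower and 15.4% higher over all genes.

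The genes with the smallest p in these lists did not pass the test either. Galns, a sulfatase gene, had 21.03 ± 1.57 CPM in Il33flx and 27.6 ± 4.66 CPM in Ctrl. Clcn7, the lysosomal chloride-proton exchanger gene, had 64.8 ± 2.21 CPM in Il33flx and 82.6 ± 14.1 CPM in Ctrl, and the cystine transporter gene Ctns had 22.8 ± 1.31 CPM in Il33flx and 29.2 ± 5.85 CPM in Ctrl. Mcoln3, a channel gene related to Mcoln1, was near the detection limit at 0.141 ± 0.0797 CPM in Il33flx and 0.445 ± 0.347 CPM in Ctrl (SD, n = 2 each here). These 4 genes were lower without overlap. For Mcoln3 the counts were 6 and 14 in Il33flx, against 53 and 15 in Ctrl, so Il33flx 2 and Ctrl 2 were nearly equal. The Galns log2 fold change was -0.39, and -0.20 without Ctrl 1.

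Of 9 tested genes for other pump subunits and assembly factors, 6 were negative, with a median of -0.06. Without Ctrl 1, 4 of the 9 were negative and the median was 0.01. The groups of these 9 genes did not overlap for 0 lower and 1 higher (Atp6v1g2, 11.1%), against 14.9% and 15.4% of all genes. Dmxl2, which encodes a factor that reassembles V1 with V0, had 2.59 ± 0.73 CPM in Il33flx and 1.38 ± 1.02 CPM in Ctrl (SD, n = 2 each). Its groups overlapped, with Ctrl 1 the lowest library at 0.66 CPM. The Dmxl2 log2 fold change was 0.90 ± 0.59 SE, and 0.31 without Ctrl 1. Of 15 genes for nutrient signalling on the lysosome, 10 were negative, with a median of -0.08. Without Ctrl 1, 9 of the 15 were negative and the median was -0.03. The groups did not overlap for 5 lower (33.3%) and 0 higher of the 15, against 14.9% and 15.4% of all genes. Fnip2, a folliculin partner gene that acts on the Rag GTPases, had 29.3 ± 5.08 CPM in Il33flx and 39.2 ± 4.27 CPM in Ctrl. Lamtor5, a subunit gene of the Ragulator complex that anchors these GTPases, had 73.8 and 79.5 CPM in Il33flx, against 42.9 and 76.8 CPM in Ctrl, again with Ctrl 1 apart.

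Markers of other cell types were summed per library, because macrophages and monocytes also hold many lysosomes. The 14 macrophage markers, all tested, summed to 217 to 268 CPM in Il33flx and 220 to 268 CPM in Ctrl, and Vsig4 was at 0 in Ctrl 1. The 7 monocyte markers summed to 469 to 571 CPM in Il33flx and 492 to 572 CPM in Ctrl. The 8 mature DC markers summed to 1395 and 1211 CPM in Il33flx, against 2206 and 1305 CPM in Ctrl, so Ctrl 1 was high here as it was for most members. The 8 B cell markers summed to 84.8 to 105 CPM in Il33flx and 49.7 to 49.9 CPM in Ctrl, and the 10 neutrophil markers to 514 to 720 CPM in Il33flx and 387 to 398 CPM in Ctrl. The 7 erythroid markers with a row summed to 12.6 to 28.4 CPM in Il33flx and 4.51 to 5.002 CPM in Ctrl, with Slc4a1 and Klf1 at 0 in some libraries. The 9 T cell and EL4 markers summed to 78.5 to 90.1 CPM in Il33flx and 93.7 to 141 CPM in Ctrl. The 6 plasmacytoid DC markers summed to 173 to 248 CPM in Il33flx and 199 to 201 CPM in Ctrl, and the 6 stromal markers to 54.6 to 70.3 CPM in Il33flx and 57.7 to 61.8 CPM in Ctrl. Most of the stromal sum was Pecam1, at 51.1 to 68.5 CPM in Il33flx and 55.4 to 55.7 CPM in Ctrl. The 10 conventional DC markers summed to 39110 to 45727 CPM in Il33flx and 41512 to 50562 CPM in Ctrl. H2-Ab1 alone held 33048 and 39021 CPM of the Il33flx sums and 42764 and 34599 CPM of the Ctrl sums. Of these 10 markers, 3 were lower without overlap in Il33flx (Zbtb46, Itgax and Irf8) and 1 was higher (Irf4). Over all genes the shares were 14.9% lower and 15.4% higher. The part of these cell types in the values of the members was not tested.

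Reads of some other members can also be shared with neighbours or copies. Exons of 7 members overlap an annotated gene on the opposite strand (Atp6v0a2, Atp6v0b, Atp6v1e1, Atp6v1h, Lamp1, Npc1 and Hexa), and those of Glb1 overlap Tmppe on the same strand. Of the stretches of 50 bases in the transcripts of Atp6v1g1, 19.2% also occur in transcripts of other genes, mainly in the pseudogene Gm13453, which had 6 and 11 counts in Il33flx and 7 and 2 in Ctrl. For Cd63 the share was 11.1%, and its pseudogene Cd63-ps had 40 and 25 counts in Il33flx and 39 and 28 in Ctrl. For Atp6v1f the share was 11.2%, with 1 other gene, whose counts were not used here. For Hexa it was 10.6%, with Tmem202, which had 19 and 22 counts in Il33flx and 33 and 35 in Ctrl. For Atp6v0b (8.59%) and Atp6v0a2 (8.35%) the antisense genes Gm12841 and 4930404A12Rik had 0 counts in each library. None of the copies or neighbours counted here, Gm13453, Cd63-ps and Tmem202, held counts on the scale of those of Atp6v0c-ps2. Such counts leave out reads with several placements, so they cannot show how many reads a member lost to a copy. The counts of the remaining overlapping neighbours were not used here.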

How the data were processed

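The deposited table holds raw counts, whole numbers of reads for each gene. The tools named for it are Trimmomatic 0.39, STAR, HTSeq and DESeq2, with build GRCm38, per the submitters' processing notes. Other versions, the annotation release and the strand setting are not given in the sources used here. The 5 summary rows were left out. They show that 69.9% to 72.2% of counted reads were in genes and 21.9% to 23.1% did not align uniquely. In the authors' deposited table, signal columns are counts divided by a size factor per library, log2 columns the fold change of Il33flx over Ctrl and its error, the score column the Wald statistic, and p-value columns unadjusted and adjusted p. It was used only where named.

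Il33flx was compared with Ctrl on all genes in edgeR 4.0.16 (R 4.3.3; quasi-likelihood F test), with filterByExpr, TMM factors and no covariate. P-values were adjusted by Benjamini-Hochberg over 14995 genes and called below 0.05. SE is the size of the log2 value over the root of its F statistic. The procedure was tested on simulated counts. TPM used the length of all annotated exons of each gene together, from GENCODE M21 (GRCm38). Alternatives were DESeq2 1.42.0, limma-voom (limma 3.58.1), other filters and scaling, a replicate block and leaving out each library. Summing Atp6v0c with its copy and the repeat of the overlap counts were added after seeing the data. Members and lists were chosen with earlier results of these data known. Values per library were given for members whose groups did not overlap or whose unadjusted p was under 0.05, for 17 members fixed by role, and for the members of further lists with the smallest p.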

Additional observations from a re-analysis of the deposited data

How the results depend on the processing

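The count of 0 called members was the same under all 10 alternatives. Over all genes, edgeR called 1 gene, while 53 were called with DESeq2, 33 with the replicate block, and 0 with limma-voom, with library size alone or with no filter, and leaving out single libraries gave 0 to 36. The replicate numbers are not stated to pair libraries, and deviations of same-numbered libraries correlated at r = -0.0323 across genes, so the block result only describes these libraries. It left 0 members called, with an Atp6v0c log2 fold change of -1.03. The V-ATPase median was -0.203 without Ctrl 2 and -0.0127 without Ctrl 1, and the other-member median lay between -0.341 and -0.0518 for the same libraries. With library size alone the V-ATPase median was about 0 (-9.45e-06). With single libraries left out, 13 to 24 members were lower and 4 to 11 were higher without overlap. For the same libraries left out, 28.5% to 37.9% of all genes were lower and 29% to 41.4% were higher. Members whose log2 fold change turned sign numbered 2 with DESeq2, 4 with library size alone, 1 with no filter, 1 with the 1 CPM filter, 0 with limma-voom and 0 with the block, and 12 without Ctrl 1, 4 without Ctrl 2, 1 without Il33flx 1 and 5 without Il33flx 2. Among the members described per library, signs turned for Atp6ap2 with DESeq2 (-0.0084) and for Atp6v1a (0.0098) and Scarb2 (0.030) with library size alone; the cause was not tested. With single libraries left out, 18 of the 34 turned sign at least once. The log2 fold changes of such members described per library were -0.35 to 1.04 for Lamp2, -0.97 to 0.093 for Cd63, -0.30 to 0.16 for Mcoln1 and -0.059 to 0.53 for Lipa, each lowest or highest without a Ctrl library. Among the rest, the ranges were -0.22 to 0.74 for Atp6v1h, -0.45 to 0.17 for Neu1 and -0.42 to 0.04 for Hexa. They were -0.29 to 0.15 for Atp6v1a and -0.095 to 0.022 for Scarb2 without an Il33flx library, and -0.071 to 0.11 for Atp6ap2, -0.0081 to 0.15 for Tfeb and -0.26 to 0.49 for Mitf without a Ctrl library. More V-ATPase genes also turned sign, with -0.32 to 0.098 for Atp6v0a1, -0.32 to 0.10 for Atp6v0b and -0.23 to 0.11 for Atp6v0d1. The ranges of Atp6v0e, Atp6v1d and Atp6v1e1 were -0.18 to 0.0022, -0.063 to 0.057 and -0.17 to 0.19. With 1 library left in a group, it was assumed to vary like the other group. Depth limits only genes near 0 counts, while 2 libraries a group limit all others.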
